A study of Rattus norvegicus with 151 samples.

Results

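Cholesterol synthesis, uptake and export was followed through 32 genes of known role: the enzymes that build cholesterol, the proteins that sense sterols, and the proteins that move, store or export it. They were chosen with earlier results of these data known. The array annotation used here named 14218 genes, and 29 of the 32 were among them. Of these, 17 were synthesis enzymes, 5 were regulators, and 7 served transport, esterification and export. Hmgcs1, Npc1 and Soat2 had no probe set that carried their symbol alone in that annotation and were not analysed here. Each gene was represented by its brightest probe set in the tissue, the short set of array probes for that transcript, and all values are log2 units, in which a difference of 1 is a doubling. The rats were male Harlan Sprague-Dawley animals, 6 to 8 weeks old, dosed by gavage once daily on 5 days in studies that followed a chemical spill in West Virginia. MCHM (4-methylcyclohexanemethanol) and crude MCHM, the technical mixture, were each given at 500, 300, 100, 10, 1 and 0.1 mg/kg of body weight, and PPH (propylene glycol phenyl ether) at 1000, 500, 100, 10 and 1 mg/kg. Each of the 3 sets had its own vehicle group, which received the corn oil alone. Expression arrays of 81 livers and 69 kidneys were used, in 40 groups of 2 to 5 arrays. An array is named by the end of its label, such as PPH-203, in which the number is that of the replicate.

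Cholesterol is built in the endoplasmic reticulum and cytosol from acetyl-CoA through mevalonate, isoprenoid phosphates, squalene and lanosterol. When sterols run low, the escort protein Scap carries the membrane-bound transcription factor Srebf2 to the Golgi, where its active part is released, and most synthesis genes are its targets; Insig1 and Insig2 hold Scap back when sterols are plentiful. In liver the end product also feeds bile acids, lipoproteins and, through the transporter pair Abcg5 and Abcg8, the bile.

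Nearly all named members passed the filter on dim genes, which asked for a value above the 40th percentile of the tissue in at least 3 arrays of a fit. In liver 28 of the 29 named members were tested with MCHM and crude MCHM and 29 with PPH, and in kidney 27 were tested. Soat1, which esterifies cholesterol for storage, was above the filter level in only 4 of 81 livers. Abcg5 was above it in 1 of 69 kidneys and Abcg8 in 0 of 69. The liver arrays carried the hepatocyte markers (Alb, Ttr, Cps1, Serpina1, Cyp2c11 and Hpx) above the filter level, 6 of 6. Some kidney arrays read high for some markers of other cells, but not for all. Of the hepatocyte list, medians and highest values were 4.63 and 11.06 for Alb, 5.06 and 9.32 for Ttr, and 3.69 and 7.64 for Serpina1. They were 6.95 and 8.64 for Cyp2c11 and 3.56 and 5.86 for Hpx. Of the fat cell list they were 6.82 and 13.34 for Fabp4, 3.99 and 11.11 for Cfd, and 5.16 and 10.03 for Adipoq. For Plin1 they were 4.14 and 5.61. Cps1 of the hepatocyte list (highest 4.09) and Lep of the fat cell list (highest 4.26) stayed below the filter level in every kidney. The part of these markers in the kidney results was not tested. Each array's median correlation with the other arrays of its set lay between 0.987 and 0.995. A kidney at 0.1 mg/kg MCHM (replicate 13) had 0.400 and was left out as row-shifted. The labels do not state that the arrays of a group come from separate animals, so the p-values measure the spread between these samples, and the small groups limit the precision. As these are whole tissues, fewer cells of a type and less RNA per cell cannot be told apart.

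The bases just before the start of 5 synthesis genes that rose together at 1000 mg/kg PPH, of the sterol sensor gene Insig1 and of the exporter pair are shown because these genes give the main patterns below. They are from RefSeq on the build GRCr8, 5′ to 3′ on the strand of the gene, and end at the base before the start site (250 bases). For Abcg5 and Abcg8, which run in opposite directions, the bases between both starts are given on the plus strand. Capitals mark CCAAT, the motif of the factor NF-Y, and CACNCCAC, the core of the sterol regulatory element, each also where it reads on the other strand.
Mvk: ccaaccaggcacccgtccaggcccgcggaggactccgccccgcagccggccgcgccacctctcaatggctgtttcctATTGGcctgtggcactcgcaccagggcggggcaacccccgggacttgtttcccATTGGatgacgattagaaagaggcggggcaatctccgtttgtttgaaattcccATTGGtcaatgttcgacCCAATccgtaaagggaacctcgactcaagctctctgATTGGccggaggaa
Acat2: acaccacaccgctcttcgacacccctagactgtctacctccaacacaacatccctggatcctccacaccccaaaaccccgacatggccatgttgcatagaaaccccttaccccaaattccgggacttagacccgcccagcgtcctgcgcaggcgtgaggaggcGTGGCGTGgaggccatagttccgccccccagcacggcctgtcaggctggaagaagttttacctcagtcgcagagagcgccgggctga
Msmo1: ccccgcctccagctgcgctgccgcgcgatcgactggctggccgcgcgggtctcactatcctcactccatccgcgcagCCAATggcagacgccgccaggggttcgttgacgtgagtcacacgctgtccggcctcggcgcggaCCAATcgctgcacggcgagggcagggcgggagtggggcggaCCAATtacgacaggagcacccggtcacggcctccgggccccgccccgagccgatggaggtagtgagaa
Ebp: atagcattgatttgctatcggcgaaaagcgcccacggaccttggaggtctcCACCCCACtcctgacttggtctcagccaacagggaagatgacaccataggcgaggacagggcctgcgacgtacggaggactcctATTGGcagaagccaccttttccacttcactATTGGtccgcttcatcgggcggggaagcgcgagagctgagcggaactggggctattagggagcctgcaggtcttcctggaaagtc
Tm7sf2: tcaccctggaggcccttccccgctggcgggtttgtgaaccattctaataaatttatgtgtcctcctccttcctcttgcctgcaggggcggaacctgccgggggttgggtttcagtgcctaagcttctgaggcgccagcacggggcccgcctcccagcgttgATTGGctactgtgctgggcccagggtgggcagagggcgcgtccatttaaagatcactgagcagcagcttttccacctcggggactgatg
Insig1: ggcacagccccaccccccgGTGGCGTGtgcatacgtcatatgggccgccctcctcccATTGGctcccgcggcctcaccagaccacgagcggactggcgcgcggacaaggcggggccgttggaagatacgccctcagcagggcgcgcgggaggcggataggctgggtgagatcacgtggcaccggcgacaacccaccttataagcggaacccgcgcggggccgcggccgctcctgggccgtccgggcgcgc
Between Abcg5 and Abcg8: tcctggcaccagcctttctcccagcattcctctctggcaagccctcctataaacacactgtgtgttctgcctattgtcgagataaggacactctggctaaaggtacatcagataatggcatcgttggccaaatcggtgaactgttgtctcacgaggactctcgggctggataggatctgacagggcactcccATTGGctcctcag
These stretches lie at chr12:47819504-47819753 (minus strand, Mvk), chr1:50100590-50100839 (plus, Acat2), chr16:29746863-29747112 (plus, Msmo1), chrX:16971212-16971461 (plus, Ebp), chr1:212789542-212789791 (minus, Tm7sf2), chr4:8057770-8058019 (minus, Insig1) and chr6:15717731-15717935 (between Abcg5 and Abcg8).

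Mvk held 5 copies of CCAAT in its 250 bases, Msmo1 3, Ebp 2, and Tm7sf2 and Insig1 1 each. Acat2, Ebp and Insig1 each held 1 copy of CACNCCAC. The motifs were also counted on both strands in windows from 250 bases before to 50 after the start, which were at hand for 27 of the 32 members and not for Pmvk, Fdft1, Sqle, Stard4 and Soat2. CCAAT was in 20 of the 27 (74.1%), against 37.5% of all 33469 windows of that length. The GC box GGGCGG was in 21 of 27 (77.8%, against 33.1%), the E-box CACGTG in 4 (14.8%, against 6.42%) and CACNCCAC in 3 (11.1%, against 5.80%). The longer sterol element TCACNCCAC, which contains the shorter one, was in 0 of 27, against 1.12% of all windows. A match describes the letters of the window and not a bound site.

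The first question was where the pathway is expressed without any chemical. Comparisons of the tissues used 1 probe set per gene, the brightest over both tissues together, which for Insig2 is not the brightest in kidney. In the vehicle rats of the PPH set, 27 of 29 members were higher in liver than in kidney and 1 was lower (limma, Benjamini-Hochberg adjusted p under 0.05 over all genes tested), where 77.7% of all genes differed between the tissues and 33.2% were higher in liver. In the MCHM set 27 were higher and 1 lower, where 77% of all genes differed and 35.7% were higher in liver. In the crude MCHM set 26 were higher and 1 lower, where 75% of all genes differed and 29.7% were higher in liver. The counts of each set include Abcg5 and Abcg8, above the filter level in 1 and 0 of 69 kidneys. They also include Soat1, the lower member, above it in 4 of 81 livers. These genes entered the test mainly through the tissue in which they are higher, so their direction adds nothing to the pattern. Among the synthesis enzymes the difference in the PPH set ran from 1.10 ± 0.16 (SE) for Mvd, the mevalonate diphosphate decarboxylase, to 4.19 ± 0.11 for Nsdhl, a dehydrogenase that helps remove the methyl groups of lanosterol. Abcg5 stood 4.58 higher in liver, a value that rests on kidneys near background, the cellular exporter Abca1 3.48 and Insig2 3.86. Scap and Srebf2, the shared machinery of sterol sensing, differed least among those that passed, by 0.51 and 0.43. Npc2, a lysosomal cholesterol carrier, differed by 0.04 with an adjusted p of 0.636, and Soat1 was 2.53 lower in liver (change −2.53), a size that rests on livers near background (mean 4.21, below the filter level of 4.69). In the crude MCHM set Srebf2 (0.22, adjusted p 0.16) did not pass either. Whether both tissues were normalized together is not given in the sources used here, so these differences are on the deposited scale.

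**Figure D1:**
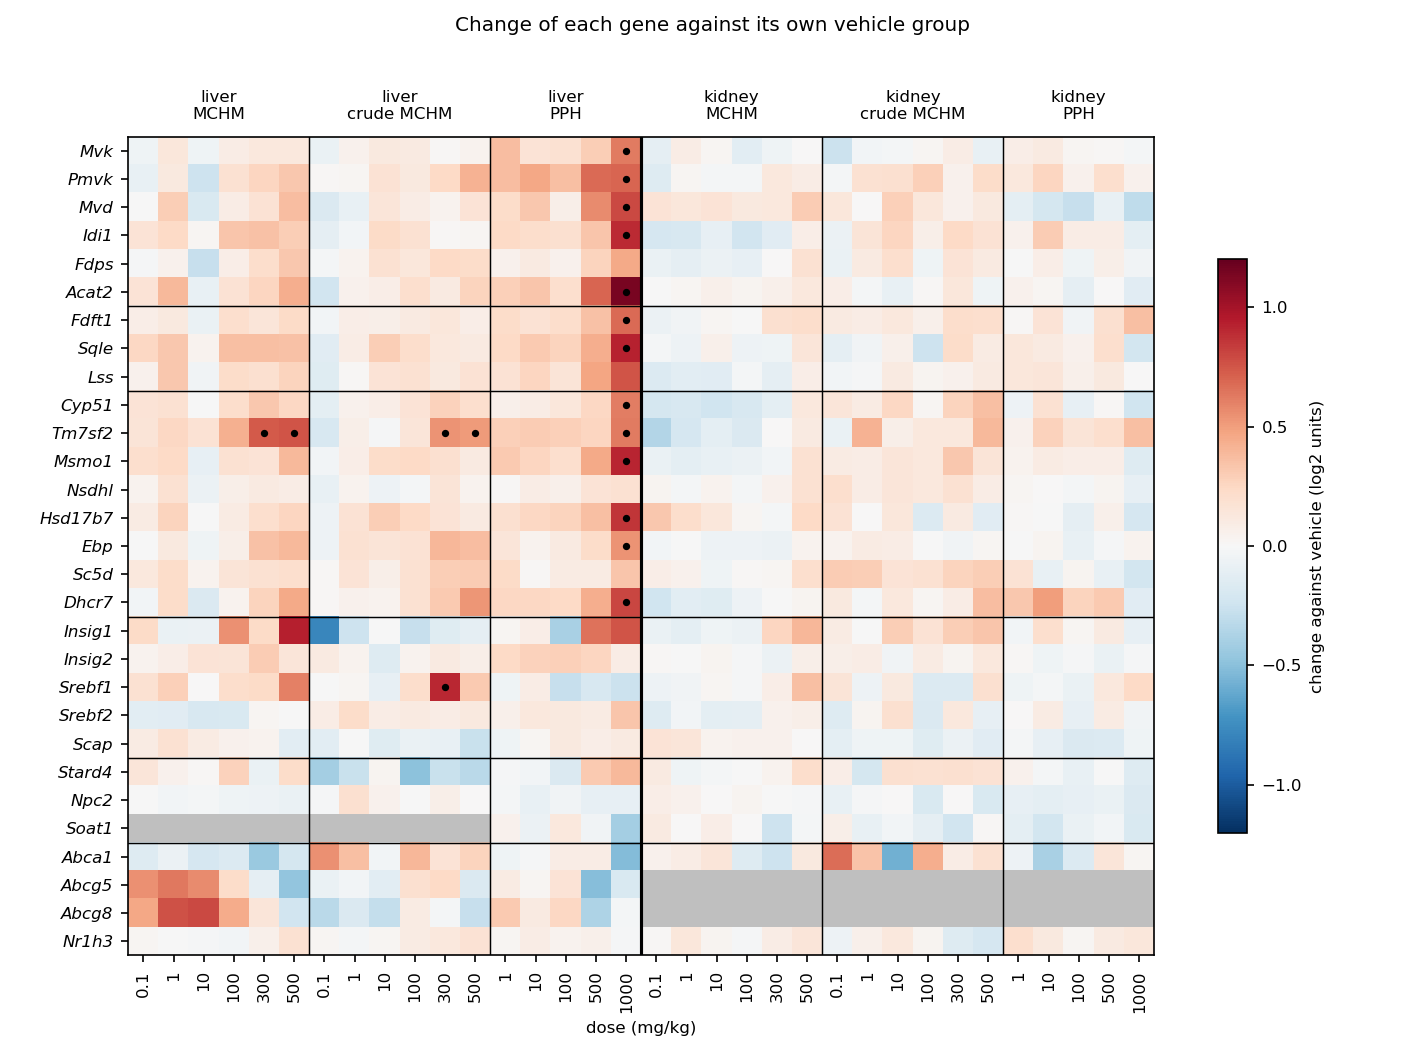
Change against the own vehicle group (log2 units, colour) of each of the 29 named members (rows, ordered by step, lines between steps) at each dose of the 3 chemicals (columns) in liver and kidney. A black dot marks an adjusted p under 0.05 and grey a gene that was not tested. The dots stand at the highest PPH dose in liver, at 300 and 500 mg/kg MCHM and crude MCHM for few genes, and nowhere in kidney.

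At 1000 mg/kg, the highest dose given of any chemical, most of the measured synthesis enzymes were higher in PPH livers than in vehicle livers. Of 29 members 13 rose and 0 fell, where 1.75% of the 11342 genes tested were called in either direction and 1.22% rose. All 13 were among the 17 synthesis enzymes. As the members were chosen with earlier results of these data known, setting them beside all genes is not an independent test. The 17 enzymes were higher in 17 of 17 cases by 0.18 to 1.14, with a median of 0.70, and 16 of them had an unadjusted p under 0.05. The median over all 29 members was 0.54 and that over all genes tested was 0.03. In 16 of the 29, every treated liver lay above every vehicle liver, as did 4.2% of all genes tested, and no member had every treated liver below.

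Of the 6 enzymes of the mevalonate part 5 rose, among them the member with the largest change. Acat2, the cytosolic thiolase that joins acetyl-CoA units at the entry to the route, read 8.89, 8.19, 9.14, 9.03 and 9.17 in the 5 vehicle livers and 9.66, 9.81, 10.44 and 10.21 in the 4 treated livers. The groups did not overlap, and the lowest vehicle liver stood apart from the other vehicle livers. The rise was 1.14 ± 0.21 (SE), or 2.21-fold, with an adjusted p of 0.0061 (limma). Mvk, which adds the first phosphate to mevalonate, read 8.59, 8.31, 8.52, 8.34 and 8.71 in vehicle livers and 9.0, 9.05, 9.42 and 9.0 in treated livers, a rise of 0.62 ± 0.12 (adjusted p 0.00733). Pmvk, which adds the second, read 9.20, 8.69, 9.31, 9.02 and 9.08 against 9.43, 9.57, 9.99 and 10.06 (0.70 ± 0.16). For both kinases all treated livers exceeded all vehicle livers. Mvd, which makes isopentenyl diphosphate, read 7.71, 7.12, 7.96, 7.65 and 8.09 against 8.10, 8.35, 8.77 and 8.78 (0.79 ± 0.21, adjusted p 0.0489), and the lowest treated liver was barely above the highest vehicle liver. Its isomerase Idi1 read 11.04, 10.29, 10.91, 10.94 and 11.32 against 11.71, 11.65, 12.17 and 11.67, a rise of 0.90 ± 0.19 (adjusted p 0.0154). Fdps, which joins the isoprenoid units to farnesyl diphosphate, was 0.46 higher and did not pass (adjusted p 0.107), though its groups did not overlap either.

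Of the 3 enzymes that lead through squalene to lanosterol 2 rose. Fdft1, squalene synthase, read 10.17, 9.84, 10.12, 9.99 and 10.26 in vehicle livers and 10.50, 10.78, 10.93 and 10.83 in treated livers. It had the smallest adjusted p among the members (0.68 ± 0.11, 1.60-fold, adjusted p 0.0015), and the spread within both groups was small. Sqle, squalene epoxidase, read 9.06, 7.98, 8.87, 8.47 and 9.22 against 9.52, 9.47, 9.98 and 9.59 (0.92 ± 0.23, adjusted p 0.0387). Its vehicle livers spread far more widely than its treated livers. Lss, which closes the rings to lanosterol, read 9.74, 9.11, 10.04, 9.43 and 9.99 against 10.01, 10.26, 10.93 and 10.48. It was 0.75 ± 0.20 higher with an adjusted p of 0.053, just past the threshold, and 1 treated liver lay below the highest vehicle liver.

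In the stretch from lanosterol to cholesterol 6 of 8 enzymes rose. Cyp51, the lanosterol demethylase, read 11.77, 11.26, 11.76, 11.62 and 11.84 in vehicle livers and 11.98, 12.09, 12.67 and 12.30 in treated livers (0.61 ± 0.14, adjusted p 0.0212). Tm7sf2, the sterol reductase that follows it, read 10.29, 9.94, 10.11, 10.36 and 10.06 against 10.47, 10.80, 11.13 and 10.70 (0.62 ± 0.13, adjusted p 0.0107). Both pairs of groups were separate. Msmo1, the sterol methyl oxidase, read 11.21, 10.34, 11.32, 11.00 and 11.56 against 11.81, 12.03, 12.13 and 12.02 (0.91 ± 0.19, adjusted p 0.012). Hsd17b7, the keto reductase of the same demethylation, read 9.31, 8.46, 9.27, 9.07 and 9.59 against 9.77, 9.92, 10.37 and 9.90 (0.85 ± 0.20, adjusted p 0.0259). In both genes the vehicle liver of replicate PPH-203 was lowest by a wide margin. Ebp, the sterol isomerase, read 10.66, 10.34, 10.56, 10.70 and 10.62 against 10.89, 11.19, 11.48 and 10.89 (0.54 ± 0.11, adjusted p 0.00976). Dhcr7, the reductase that makes cholesterol from its immediate precursor, read 10.80, 9.83, 10.55, 10.55 and 10.68 against 10.97, 11.09, 11.78 and 11.29 (0.80 ± 0.16, adjusted p 0.0124). The desaturase Sc5d (0.33, adjusted p 0.116) and Nsdhl (0.18, adjusted p 0.584) did not pass.

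None of the 5 regulators passed at this dose. Insig1 read 10.35, 9.79, 11.90, 10.62 and 11.44 in vehicle livers and 11.17, 11.68, 11.58 and 11.87 in treated livers, so that the vehicle group alone spanned the treated range. Its difference was 0.76 ± 0.33 with an adjusted p of 0.294. Srebf2, the factor that acts on the synthesis genes, read 7.91, 7.52, 7.86, 7.70 and 7.82 against 7.94, 8.19, 8.26 and 8.01. All treated livers lay above all vehicle livers, yet the difference of 0.34 ± 0.10 did not pass (adjusted p 0.0796). Srebf1, the sister factor that favours fatty acid synthesis, was at −0.26 ± 0.22 (adjusted p 0.653), from 10.82, 9.94, 11.10, 10.10 and 11.00 to 10.17, 10.56, 10.13 and 10.47. Insig2 read 11.45, 11.96, 11.68, 11.72 and 11.10 against 11.67, 11.76, 11.64 and 11.60 (0.09 ± 0.14), and Scap 8.58, 8.49, 8.78, 8.55 and 8.72 against 8.53, 8.74, 8.98 and 8.69 (0.11 ± 0.11). For these 3 genes the groups overlapped throughout.

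None of the tested genes for transport, storage and export passed. Abca1, which loads cholesterol onto high-density lipoprotein, read 10.43, 10.42, 10.07, 9.83 and 9.91 in vehicle livers and 10.14, 9.93, 9.64 and 8.73 in treated livers (−0.52 ± 0.23, adjusted p 0.295). A single treated liver (replicate PPH-237) was far below the rest. Abcg5 read 8.42, 8.18, 7.77, 8.35 and 8.56 against 8.16, 7.83, 8.54 and 7.76 (−0.18 ± 0.23). Abcg8 read 5.94, 5.65, 5.08, 6.09 and 5.88 against 5.80, 5.52, 6.33 and 5.17 (−0.02 ± 0.26). For both parts of the biliary transporter the groups overlapped. Nr1h3, the oxysterol receptor that acts on the exporters, was at −0.02, the sterol carrier Stard4 at 0.39 (adjusted p 0.431), Npc2 at −0.09 and Soat1 at −0.41 (adjusted p 0.273).

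By step, the mean of the treated livers minus the vehicle mean was 0.77 for the mevalonate part (6 enzymes, SD over the treated livers 0.24), 0.79 (SD 0.26) for squalene and lanosterol (3 enzymes) and 0.61 (SD 0.21) for lanosterol to cholesterol (8 enzymes). It was 0.21 (SD 0.13) for the 5 regulators and −0.19 (SD 0.30) for the 4 genes of export.

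The number of enzymes that passed moved with single livers. In 9 fits with 1 liver left out the count ran from 3 to 14, and it moved most downward without treated replicate PPH-236 (3), treated replicate PPH-237 (8) and vehicle replicate PPH-203 (8). Acat2, Fdft1 and Mvk passed in all 9 fits, Dhcr7, Ebp, Idi1, Msmo1 and Tm7sf2 in 8, Cyp51 and Pmvk in 6, Hsd17b7 in 5, and Mvd and Sqle in 3. The vehicle liver of replicate PPH-203 was the lowest of the 5 for 17 of 17 enzymes and 23 of 29 members, where it was lowest for 17.3% of all genes tested. Against the mean of the other vehicle livers it stood at −0.23 for Mvk, −0.93 for both Sqle and Msmo1 and −1.29 for Insig1, while Insig2 (0.47) and Abca1 (0.37) were higher in it. Without it the mean change of the 17 enzymes at 1000 mg/kg was 0.58, and without treated replicate PPH-236 it was 0.60, against 0.70 with all livers. Beside these changes, the mean of the 5 named macrophage markers of 6 ran from 7.89 to 8.27 in treated and from 8.23 to 8.66 in vehicle livers, and that of the 6 hepatocyte markers from 13.72 to 13.86 and from 13.85 to 13.93. Their part in the result was not tested.

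**Figure D2:**
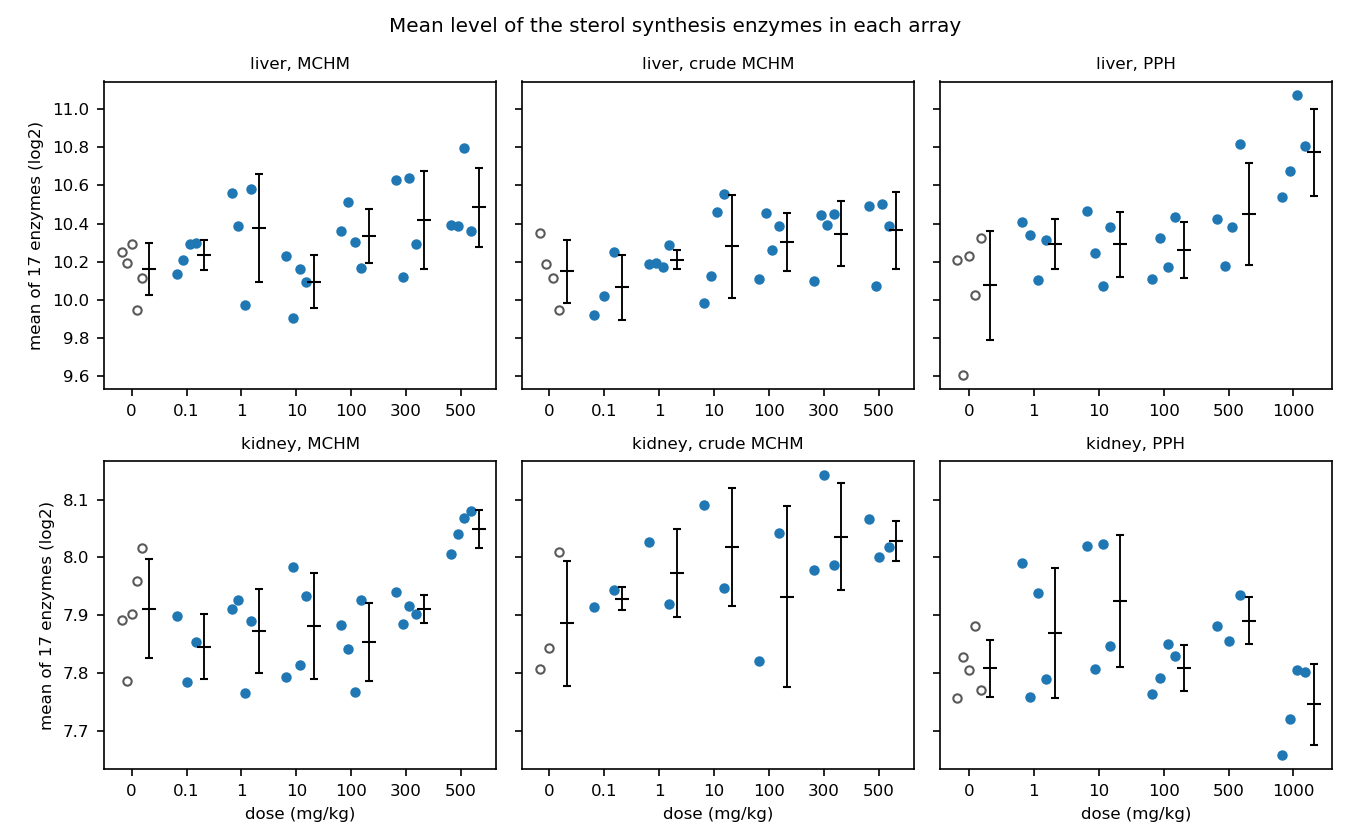
Mean of the 17 synthesis enzymes on each array (log2 units, vertical) by dose (horizontal) for each chemical in liver and kidney. Open points are vehicle arrays, filled points treated arrays and bars the group mean ± SD. In PPH livers the 4 arrays at 1000 mg/kg lie between 10.54 and 11.07 and the vehicle livers between 9.61 and 10.32.

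Below 1000 mg/kg PPH, the enzymes stood above vehicle at every dose without passing singly. At 500 mg/kg 0 of 29 members were called, where 0.0882% of all genes were, and 10 had an unadjusted p under 0.05 (limma). The median change of the members was 0.26. Pmvk read 9.48, 9.46, 10.03 and 9.98 in these livers and was 0.68 higher than vehicle (adjusted p 0.062), and Fdft1 read 10.48, 10.29, 10.28 and 10.68. Those were the 2 members whose livers at 500 mg/kg all lay above the vehicle livers, as did 4.3% of all genes tested. At 1, 10 and 100 mg/kg 0 members were called, with 4, 2 and 2 at an unadjusted p under 0.05, and 0, 0.00882% and 0 of all genes were called. The mean change of the 17 enzymes was 0.22, 0.21, 0.18, 0.37 and 0.70 from the lowest dose to the highest. Since the vehicle livers are shared by all 5 comparisons, so is the low replicate PPH-203: without it the same means were 0.097, 0.095, 0.063, 0.25 and 0.58.

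Averaged over all PPH doses, 2 of 29 members rose, where 1.22% of all genes were called. They were Pmvk (0.52 ± 0.12, adjusted p 0.0339) and Fdft1 (0.33 ± 0.08, adjusted p 0.0416), and 15 members had an unadjusted p under 0.05. All 17 enzymes were above 0, with a median of 0.36, which was 0.23 without vehicle replicate PPH-203. The count ran from 0 to 3 over the fits with 1 liver left out and was 0 without any one of the vehicle replicates PPH-202, PPH-203, PPH-206 and PPH-208, and 0 after a further quantile normalization. It was 1 without vehicle replicate PPH-205, and 1 without any one of 11 treated livers (replicates PPH-210, PPH-214, PPH-216, PPH-217, PPH-219, PPH-221, PPH-222, PPH-225, PPH-229, PPH-236 and PPH-237).

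Along the rank of the dose, with vehicle as rank 0, 11 of 29 members rose and 0 fell, where 1.32% of all genes were called. Acat2 rose by 0.19 per dose step (adjusted p 0.00741), Msmo1, Idi1 and Hsd17b7 by 0.14 each, Dhcr7 by 0.13, Pmvk by 0.12, Fdft1 by 0.11 (adjusted p 0.00339), Cyp51 by 0.10, Tm7sf2 by 0.09, and Ebp and Mvk by 0.08. Acat2 and Fdft1 passed in all 25 fits with 1 liver left out. The count was 2 without treated replicate PPH-236, 4 without PPH-237, 6 without vehicle PPH-203, and 7 without vehicle PPH-202 or any one of the treated replicates PPH-212, PPH-214, PPH-229, PPH-232 and PPH-235. It was 1 with a covariate for RNA integrity, the beta-actin control read at the 5' end minus that at the 3' end, where the count at 1000 mg/kg was 10.

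With MCHM a single member, Tm7sf2, passed at single doses in liver, at 300 and 500 mg/kg. Tm7sf2 at 500 mg/kg was the 1 of 28 members that rose and 0 fell, where 0.512% of 11335 genes were called. It read 10.58, 10.42, 10.61, 10.44 and 10.33 in vehicle livers and 11.13, 11.46, 11.31 and 11.01 in treated livers. The groups were well separated, and the rise was 0.75 ± 0.12 (1.69-fold, adjusted p 0.00272, limma). The livers at 300 mg/kg read 11.17, 11.11, 11.32 and 11.22 (0.73 ± 0.12, adjusted p 0.0164), where 0.0265% of all genes were called. That call held in 5 of 9 fits with 1 liver left out and was lost without vehicle replicate 7 or 8 or treated replicate 36 or 37, while the call at 500 mg/kg held in 9 of 9. Without vehicle replicate 6 the number of members called at 500 mg/kg was 2. Group means of Tm7sf2 from vehicle to 500 mg/kg were 10.47, 10.63, 10.72, 10.65, 10.90, 11.21 and 11.23. The livers at 100 mg/kg (11.05, 11.10, 10.81 and 10.65) lay above every vehicle liver without passing. Tm7sf2 was the 1 of 28 members to do so at that dose, as did 0.547% of all genes tested.

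The other enzymes stood above vehicle by smaller amounts at 500 mg/kg MCHM. All 17 were higher, with a median of 0.32, a range of 0.09 to 0.75 and 7 at an unadjusted p under 0.05. The median of the 28 members was 0.26 and that of all genes 0.01. Every treated liver lay above every vehicle liver for 6 members (Acat2, Dhcr7, Ebp, Pmvk, Srebf1 and Tm7sf2), as for 2.68% of all genes. Ebp read 10.64, 10.72, 10.78, 10.55 and 10.74 in vehicle livers and 10.94, 11.25, 11.20 and 10.91 in treated livers (0.39 ± 0.10, adjusted p 0.0576). Dhcr7 read 10.78, 10.71, 10.69, 10.73 and 10.48 against 10.93, 11.31, 11.35 and 10.92 (0.45 ± 0.14, adjusted p 0.127). Neither passed, although neither overlapped. Acat2, the gene with the largest rise at the top PPH dose, read 8.96, 8.83, 8.89, 8.47 and 8.61 against 9.12, 8.98, 9.58 and 9.10 (0.44 ± 0.18, adjusted p 0.276). The treated liver of replicate 42 was the highest for the mean of the 17 enzymes, 10.80 against 10.36 to 10.39 in the others, and without it their mean change was 0.22 in place of 0.32 and their median change 0.17.

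Among the regulators of the MCHM livers, Insig1 had the largest difference and a wide spread. It read 10.68, 9.83, 11.36, 10.89 and 10.09 in vehicle livers and 11.20, 11.67, 12.01 and 11.15 at 500 mg/kg (0.94 ± 0.27, adjusted p 0.102). Only 1 vehicle liver reached into the treated range. Srebf1 read 10.02, 9.83, 10.51, 10.26 and 10.44 against 11.06, 10.53, 10.61 and 11.07 (0.61 ± 0.19, adjusted p 0.142). The groups touched but did not overlap. Srebf2 read 8.31, 8.14, 8.44, 8.04 and 8.25 against 8.17, 8.54, 8.20 and 8.01 (−0.01 ± 0.10). Scap was at −0.13 ± 0.09, from 8.46 to 8.86 in vehicle and 8.45 to 8.66 in treated livers, and Insig2 at 0.15 ± 0.10, from 11.44 to 11.86 and 11.69 to 11.91. Of these, none passed.

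The exporter pair took a bent course over the MCHM doses. Abcg5 had group means of 8.34 in vehicle livers and 8.88, 8.98, 8.91, 8.56, 8.23 and 7.87 from 0.1 to 500 mg/kg. It was thus higher than vehicle at the 4 lower doses and lower at the upper ones, and no single dose passed. Its livers read 8.83, 8.41, 7.74, 8.51 and 8.21 with vehicle, 8.66, 8.61, 9.07 and 9.56 at 1 mg/kg and 7.90, 7.73, 7.94 and 7.90 at 500 mg/kg. Abcg8 had a vehicle mean of 6.14, then 6.60, 6.90, 6.94, 6.58, 6.29 and 5.92, so that only its mean at 500 mg/kg lay below vehicle. Abca1 read 10.27, 10.36, 9.81, 10.20 and 10.19 with vehicle and 9.96, 9.83, 9.95 and 10.07 at 500 mg/kg (−0.21 ± 0.21).

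Over the dose ranks of MCHM 2 members rose and 1 fell, where 2.38% of all genes were called. Tm7sf2 rose by 0.13 ± 0.02 per step (adjusted p 0.000109) and Ebp by 0.07 ± 0.01 (adjusted p 0.00797), and both passed in all 29 fits with 1 liver left out. Abcg5 fell by 0.11 ± 0.03 per step (change −0.11, adjusted p 0.0306) and passed in 20 of the 29. As the group means show, that slope sets high values at the low doses against low values at the high doses, not a steady fall from vehicle. The count of members was 5 without treated replicate 15 or 37. Averaged over all 6 doses, 0 of 28 members passed with limma, where 0 of all genes were called, and 5 had an unadjusted p under 0.05, Tm7sf2 at 0.41 (adjusted p 0.185) among them.

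**Figure D3:**
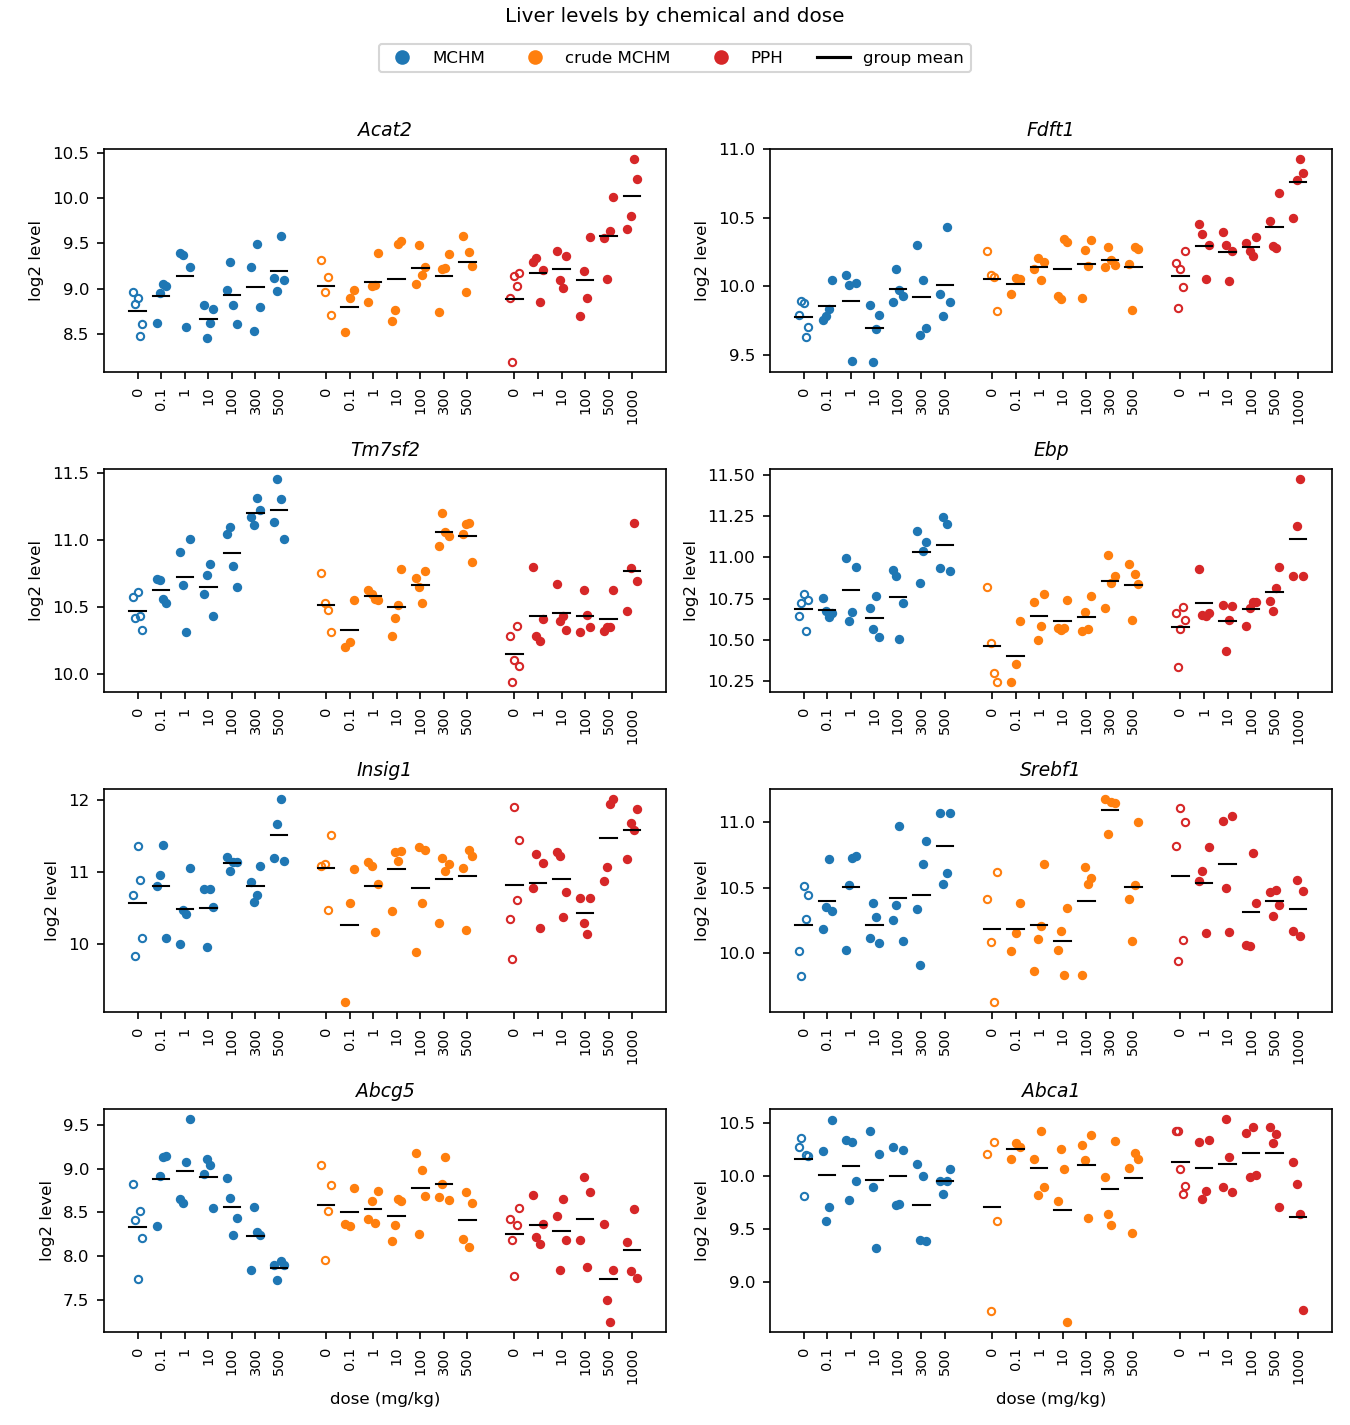
Level (log2 units, vertical) of Acat2, Fdft1, Tm7sf2, Ebp, Insig1, Srebf1, Abcg5 and Abca1 in every liver by dose (mg/kg, horizontal) of each chemical. Points are arrays and black lines group means. Within the PPH set the group means of Acat2 and Fdft1 are highest at 1000 mg/kg, and within the MCHM set that of Tm7sf2 is highest at 300 and 500 mg/kg. Insig1 spreads widely in the PPH vehicle livers, from 9.79 to 11.90.

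Crude MCHM repeated the rise of Tm7sf2, which at 500 mg/kg was again the 1 of 28 members that rose and 0 fell, where 0.675% of 11402 genes were called. It read 10.75, 10.53, 10.48 and 10.32 in vehicle livers and 11.05, 11.12, 11.13 and 10.84 in treated livers (0.51 ± 0.10, 1.43-fold, adjusted p 0.0161, limma). It was the only member without overlap, as were 5.24% of all genes. At 300 mg/kg the livers read 10.96, 11.20, 11.06 and 11.03 (0.54 ± 0.10, adjusted p 0.0119). There 2 of 28 members rose, where 1.01% of all genes were called. The second was Srebf1, from 10.41, 10.09, 9.63 and 10.62 to 11.17, 10.90, 11.15 and 11.14 (0.90 ± 0.21, adjusted p 0.0389). At 500 mg/kg Srebf1 read 10.41, 10.10, 10.52 and 11.00 and did not pass (0.32 ± 0.21, adjusted p 0.554). Only 1 of these 4 livers lay above every vehicle liver.

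These counts were small and moved with single livers. At 300 mg/kg the count was 0 without vehicle replicate Crude_MCHM-105, and 1 without vehicle replicate Crude_MCHM-106 or any one of the treated replicates Crude_MCHM-134, Crude_MCHM-135, Crude_MCHM-137 and Crude_MCHM-138. Srebf1 passed in 2 of 8 such fits and Tm7sf2 in 7. At 500 mg/kg no member passed without vehicle replicate Crude_MCHM-106 or Crude_MCHM-108 or treated replicate Crude_MCHM-143, while 2 passed without treated replicate Crude_MCHM-140 and 4 without vehicle replicate Crude_MCHM-104. Tm7sf2 passed there in 5 of 8. At 300 and 500 mg/kg 7 members each had an unadjusted p under 0.05.

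The remaining enzymes were all above vehicle at 500 mg/kg crude MCHM, with a median of 0.17. Dhcr7 read 11.06, 10.58, 10.55 and 10.44 in vehicle livers and 11.29, 10.77, 11.34 and 11.34 in treated livers (0.53 ± 0.14, adjusted p 0.0889), with 1 treated liver apart from the rest. Ebp read 10.82, 10.48, 10.30 and 10.24 against 10.96, 10.62, 10.90 and 10.84 (0.37 ± 0.11, adjusted p 0.118). Insig1 read 11.09, 11.12, 10.48 and 11.52 against 11.05, 10.20, 11.30 and 11.22 (−0.10 ± 0.36), with full overlap. Scap was at −0.27 ± 0.11 (adjusted p 0.258), Srebf2 at 0.12 ± 0.09, Insig2 at 0.07 ± 0.10, Abcg5 at −0.17 ± 0.21, Abcg8 at −0.28 ± 0.23 and Abca1 at 0.27 ± 0.31. The vehicle livers of Abca1 (10.21, 8.72, 10.33 and 9.57) spanned more than its treated livers (10.07, 9.46, 10.22 and 10.16).

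Over the dose ranks of crude MCHM 3 of 28 members rose and 0 fell, where 1.91% of all genes were called. Tm7sf2 rose by 0.11 ± 0.01 per step (adjusted p 0.000181), Ebp by 0.07 ± 0.01 (adjusted p 0.014) and Dhcr7 by 0.08 ± 0.02 (adjusted p 0.0303). Tm7sf2 and Ebp passed in all 27 fits with 1 liver left out and Dhcr7 in 19. The count was 7 without vehicle replicate Crude_MCHM-104, 6 without treated replicate Crude_MCHM-140 and 5 without treated replicate Crude_MCHM-120. Averaged over the doses, 0 of 28 passed with limma, where 0 of all genes did, and 2 had an unadjusted p under 0.05. At 100 mg/kg and below, neither MCHM nor crude MCHM had a called member in liver (limma), where 0 of all genes were called. The numbers at an unadjusted p under 0.05 were 1, 7, 3 and 2 of 28 for MCHM and 0, 2, 0 and 1 for crude MCHM from 0.1 to 100 mg/kg.

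Whether the chemicals differed at a matched dose was tested as the difference of both responses, in 4 pairs of chemical and dose per tissue. Of the members, 0 passed in any of the 8 comparisons. Among all genes tested in liver 0.0344% passed for PPH minus MCHM at 500 mg/kg and 0 in the other 3, and in kidney 0.0261% for MCHM minus crude MCHM and 0.0956% for PPH minus crude MCHM at 500 mg/kg. Tm7sf2 responded less to PPH than to MCHM at 500 mg/kg in liver by −0.49 (95% interval −0.82 to −0.16), and Srebf1 by −0.80 (−1.40 to −0.19), with adjusted p of 0.247 and 0.344 (limma). These 2 members had an unadjusted p under 0.05 in that comparison, and 2, 1 and 1 did in PPH minus crude MCHM at 500 mg/kg and MCHM minus crude MCHM at 500 and 300 mg/kg. In the 4 kidney comparisons 1 or 2 of 27 members did. Between MCHM and crude MCHM at 500 mg/kg, Tm7sf2 differed by 0.24 (−0.10 to 0.58), Acat2 by 0.17 (−0.41 to 0.75) and Insig1 by 1.04 (0.08 to 2.00, adjusted p 0.997). At 300 mg/kg Srebf1 was lower with MCHM than with crude MCHM by −0.67 (−1.29 to −0.05). Acat2 in PPH minus MCHM at 500 mg/kg was 0.26 (−0.31 to 0.82). The intervals are wide, so these values do not show that the chemicals act alike. PPH at 1000 mg/kg had no matched dose and was not set against the others.

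The vehicle groups themselves differed between the sets. In liver, Srebf2 was lower in the crude MCHM than in the MCHM vehicle group (−0.56), the 1 of 29 members called, where 11.4% of all genes were. Between the PPH and MCHM vehicle livers Srebf2 (−0.47) and Tm7sf2 (−0.32) passed, where 17.4% of all genes did, and between PPH and crude MCHM 0 passed, where 2.55% did. In kidney 9 members differed between the PPH and MCHM vehicle groups, where 31.5% of all genes did: Mvd (0.52), Srebf2 (0.27) and Scap (0.25) were higher with PPH, and Fdft1 (−0.51), Nsdhl (−0.36), Soat1 (−0.32), Msmo1 (−0.25), Acat2 (−0.22) and Lss (−0.21) lower. Between crude MCHM and MCHM kidneys 2 differed (Srebf2 by 0.40 and Scap by 0.24), where 22.3% of all genes did, and between PPH and crude MCHM 0, where 1.76% did. The beta-actin difference moved with the set too, from −2.20 to −1.69 in MCHM livers and from −1.44 to −1.06 in PPH livers, and with it as a covariate the 1 and 2 calls in liver were 0 and 0. In kidney the 9 calls of PPH minus MCHM were then 2 and the 2 of crude MCHM minus MCHM 0, and Srebf2 turned to −0.35 and −0.16. With 1 vehicle liver left out, the count was 2 without Crude_MCHM-104 for crude MCHM minus MCHM, 1 without MCHM-3, MCHM-6, PPH-205 or PPH-208 for PPH minus MCHM, and 1 without Crude_MCHM-104, PPH-203 or PPH-206 for PPH minus crude MCHM. In kidney, the count for crude MCHM minus MCHM was 0 without Crude_MCHM-105 or Crude_MCHM-106, 1 without MCHM-6 and 4 without Crude_MCHM-104. Levels are therefore compared only within a set.

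In kidney 0 members were called at any dose of any chemical, in any mean over doses or in any trend (limma). All genes tested gave 2.03% called at 1000 mg/kg PPH, 0.124% in the mean over PPH doses and 1.58% in the PPH trend, 0.0177% at 500 mg/kg MCHM and 0.124% in the MCHM trend, and 0 in the others. At 1000 mg/kg PPH 6 of 27 members had an unadjusted p under 0.05, and the 17 enzymes were higher in 5 cases, with a median of −0.12. At the doses below the highest, 0 to 6 members had such a p. Acat2 read 7.61, 7.38, 7.75, 7.76 and 7.43 in vehicle kidneys and 7.36, 7.43, 7.46 and 7.55 in treated kidneys, with overlap (−0.14 ± 0.09, adjusted p 0.498). Fdft1 read 8.21, 8.11, 8.20, 8.44 and 8.41 against 8.62, 8.76, 8.77 and 8.38 (0.36 ± 0.11, adjusted p 0.084). Mvd read 6.51, 6.45, 6.86, 6.65 and 6.54 against 5.95, 6.41, 6.36 and 6.47 (−0.30 ± 0.11, adjusted p 0.169). In both genes a single treated kidney reached into the vehicle range. Without treated replicate PPH-237 the number of members called was 2 at this dose and 1 in the trend.

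At 500 mg/kg MCHM all 17 enzymes were above vehicle in kidney by a median of 0.13, and 5 of 27 members had an unadjusted p under 0.05. Insig1 ran from 8.42 to 8.79 in vehicle and from 8.75 to 9.51 in treated kidneys (0.40 ± 0.15, adjusted p 0.398), Srebf1 from 7.38 to 7.91 and from 7.76 to 8.45 (0.36 ± 0.15, adjusted p 0.472), and Mvd from 5.87 to 6.30 and from 6.27 to 6.45 (0.30 ± 0.10, adjusted p 0.279). All 3 overlapped slightly. At 500 mg/kg crude MCHM, with 3 arrays a group, 5 members had an unadjusted p under 0.05. Insig1 ran from 8.40 to 8.57 in vehicle and from 8.76 to 8.89 in treated kidneys without overlap (0.33 ± 0.08, adjusted p 0.285). Cyp51 ran from 8.17 to 8.21 and from 8.53 to 8.58 (0.36 ± 0.11, adjusted p 0.29). Both were among 6 members whose treated kidneys all lay above vehicle, as did 5.52% of all genes in these small groups. Without vehicle replicate Crude_MCHM-104 the number of members called there was 1. Insig2, Srebf2, Scap, Nr1h3 and Abca1 had changes between −0.20 and 0.18 in kidneys given the highest dose of a chemical.

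**Figure D4:**
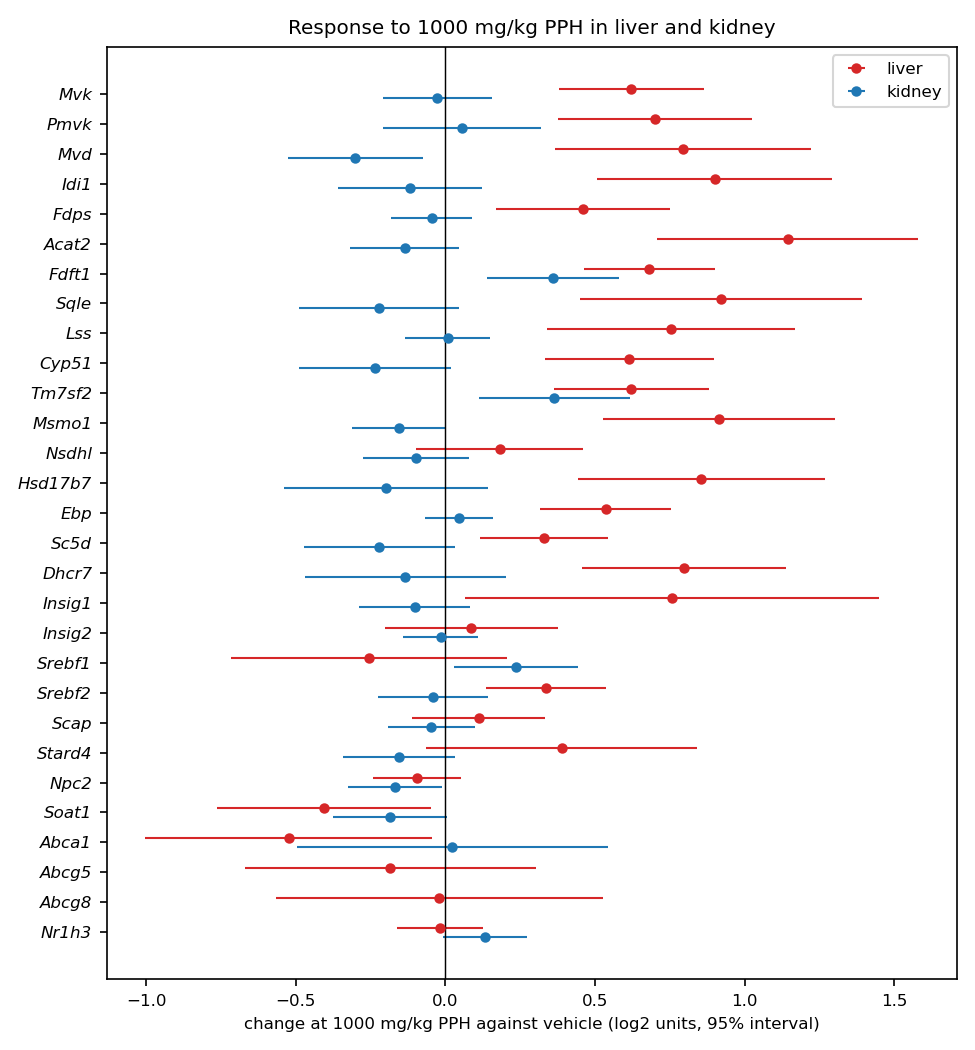
Change at 1000 mg/kg PPH against vehicle (log2 units, horizontal) of each member (rows, by step) in liver and kidney, with 95% intervals from the fits. In liver 13 enzymes were called, between 0.54 and 1.14, while the kidney values of the enzymes lie between −0.30 and 0.36. Of the 17 enzymes, 5 are above 0 in both tissues (Fdft1, Tm7sf2, Pmvk, Ebp and Lss).

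Whether liver and kidney responded differently was tested directly. At 1000 mg/kg PPH 10 of 29 members rose more in liver than in kidney and 0 less, where 0.749% of 11884 genes differed and 0.53% rose more in liver. The difference was largest for Acat2 (1.28 ± 0.24, adjusted p 0.00305, limma), followed by Sqle (1.14, adjusted p 0.027), Mvd (1.10, adjusted p 0.0157), Msmo1 (1.07, adjusted p 0.0053), Hsd17b7 (1.05, adjusted p 0.0428), Idi1 (1.02, adjusted p 0.018), Dhcr7 (0.93, adjusted p 0.0442), Cyp51 (0.85, adjusted p 0.0159), Mvk (0.65, adjusted p 0.0208) and Ebp (0.49, adjusted p 0.0345). Neither Fdft1 (0.32, 95% interval 0.014 to 0.63, unadjusted p 0.0408, adjusted p 0.346) nor Tm7sf2 (0.26, interval −0.10 to 0.62, adjusted p 0.557), both higher in treated livers, passed after adjustment. The count was 2 without liver replicate PPH-236, 5 without kidney replicate PPH-233, and 6 without liver vehicle PPH-203, kidney vehicle PPH-203 or treated kidney PPH-234. A further quantile normalization also gave 6. At 500 mg/kg MCHM and crude MCHM 0 members differed (limma), where 0.0759% and 0.0587% of all genes did, and Tm7sf2 stood at 0.64 (adjusted p 0.144) and 0.12.

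The enzymes also varied together between livers that had the same treatment. After the mean of its group was taken from each of the 81 livers, the median correlation over the 136 pairs of the 17 enzymes was 0.682, with a range of 0.101 to 0.921 and 136 pairs above 0. The median over pairs of all 11624 genes was 0.011. Whether these arrays shared their labelling and processing is not given in the sources used here, and the values are a description. Hsd17b7 (0.94), Lss (0.92), Acat2 (0.91) and Cyp51 (0.91) followed the mean of the other 16 enzymes most closely, and Tm7sf2 (0.56) least, with Ebp (0.64) next. Sc5d (0.67), Nsdhl (0.71) and Dhcr7 (0.72) stood close to Ebp. Tm7sf2 and Ebp passed in the dose trends of both MCHM and crude MCHM, Dhcr7 in that of crude MCHM, and Sc5d and Nsdhl in neither. Whether this coupling bears on the trends was not tested. Of the regulators, Scap (0.60), Srebf2 (0.58) and Insig1 (0.52) followed the enzymes in part, Srebf1 less (0.28), and Insig2 ran the other way (−0.30).

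Outside the enzymes, Abcg5 and Abcg8 had r = 0.88 with each other over the 81 livers and 0.11 and 0.18 with the enzyme mean. Insig1 had r = 0.76 with Stard4 and −0.38 with Insig2. In the 69 kidneys the enzymes were coupled less: their median r was 0.199 (−0.408 to 0.756, 110 of 136 pairs above 0), against 0.029 for all 11501 genes. There Sqle (0.81) and Idi1 (0.71) followed the enzyme mean most closely, and Sc5d (−0.08) and Acat2 (0.11) least.

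**Figure D5:**
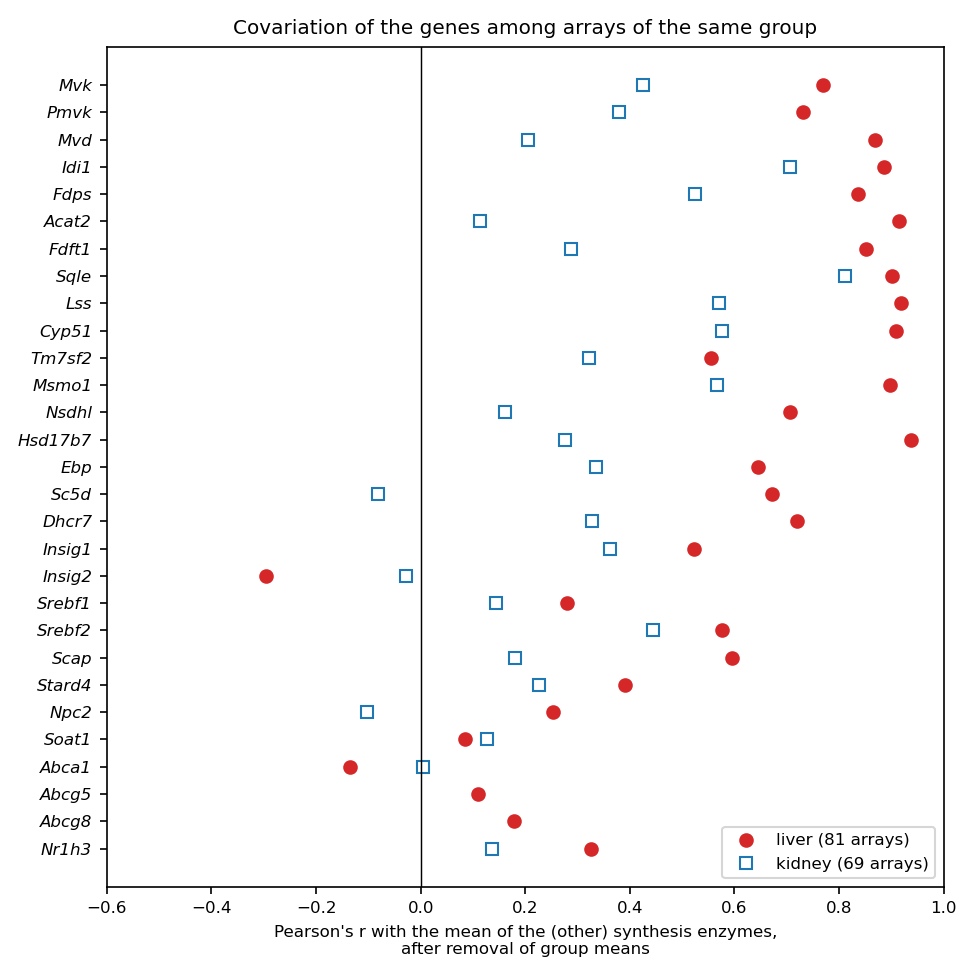
Pearson's r of each member (rows) with the mean of the other synthesis enzymes after removal of group means, over 81 livers and 69 kidneys. In liver the enzymes lie between 0.56 and 0.94, and in kidney between −0.08 and 0.81.

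Of the other genes of sterol, isoprenoid and acetyl-CoA metabolism that were listed beside the members, 30 were tested in each dose comparison in liver, with a median change of 0.08 at 1000 mg/kg PPH. At that dose 4 of the 30 rose and 0 fell, where 1.75% of all genes were called: the malic enzyme Me1, which supplies NADPH (0.80, adjusted p 0.0107), the acetyl-CoA synthetase Acss2 (0.70, adjusted p 0.0282), Tmem97, a membrane protein of cholesterol handling (0.59, adjusted p 0.00301), and Cyp27a1, a sterol hydroxylase of bile acid synthesis (0.34, adjusted p 0.0448). Acly, the citrate lyase that makes cytosolic acetyl-CoA, rose at 500 mg/kg MCHM (0.90, adjusted p 0.0272, limma), the 1 of 30, where 0.512% of all genes were called. Tmem97 rose at 500 mg/kg crude MCHM (0.53, adjusted p 0.00499), the 1 of 30, where 0.675% of all genes were called, and at 300 mg/kg both Tmem97 (0.40) and Me1 (0.60) did, where 1.01% were. Over the dose ranks of MCHM (2.38% of all genes called) Acly, Tmem97 and Rnf139, a membrane ubiquitin ligase, rose by 0.13, 0.065 and 0.032 per step. The sterol exporter Abcg1 fell by 0.038 and Lcat, which esterifies cholesterol in plasma, fell by 0.028. In the crude MCHM trend (1.91%) Acly, Me1 and Tmem97 rose by 0.15, 0.085 and 0.082 and Lcat fell by 0.028. In the PPH trend (1.32%) Me1, Acss2 and Tmem97 rose by 0.17, 0.13 and 0.10. Averaged over the PPH doses Tmem97 rose, where 1.22% of all genes were called. In kidney 0 of 30 passed at any dose (limma), where 2.03% of all genes were called at 1000 mg/kg PPH. At the highest doses of MCHM, crude MCHM and PPH there, 6, 3 and 6 of the 30 had an unadjusted p under 0.05.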

How the data were processed

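Liver and kidney RNA of the 3 chemical sets was measured on Affymetrix arrays. The deposited log2 values were made by the authors with RMA, per the submitters' processing notes; its version, and whether tissues or sets were run together, are not given in the sources used here. Of 31099 probe sets, 20832 carried 1 gene symbol, 436 carried several and 9831 were unnamed here. The brightest probe set of a gene in the tissue was kept, or over both tissues where these were compared. Genes above the 40th percentile of the tissue in at least 3 arrays (4.69 in liver, 4.66 in kidney) entered two-sided tests with limma 3.58.1 in R 4.3.3 (data.table version 1.17.8), checked on simulated data. Calls were made at an adjusted p under 0.05 (Benjamini-Hochberg, all genes tested). Each tissue and chemical was fitted alone against its own vehicle group; differences between chemicals, tissues and vehicle groups came from joint fits. Intervals are 95% intervals.

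The members, the list of other pathway genes and the tests were chosen with earlier results of these data known. The rule allowed any member to be named in the text; array values are given for those called at the highest dose, over all doses or in the trend, and for regulators and exporters. Promoters are from RefSeq (GRCr8). Correlations used values minus group means. Alternatives are given in the closing section. Python 3.11.15, pandas 2.3.3 and matplotlib 3.10.9 drew the plots.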

Additional observations from a re-analysis of the deposited data

Results flagged for a closer look

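In groups of 4 to 10 arrays, 48 groups of values were checked for an array far from the others, and 6 had one. Chance gives about 1 in 20 for a single check. The checks reuse the same arrays for genes that vary together, so they are not independent and that rate is no yardstick for the 6. Of the 6, 2 concern the PPH vehicle liver of replicate PPH-203, at 8.19 for Acat2 (others 8.89 to 9.17) and 9.83 for Dhcr7 (others 10.55 to 10.80). The treated liver of replicate PPH-236 at 1000 mg/kg PPH stood high for Idi1, at 12.17 (others 11.65 to 11.71), and for Mvk, at 9.42 (others 9.0 to 9.05). The liver of replicate 42 at 500 mg/kg MCHM stood high for the mean of the 17 enzymes, at 10.80 (others 10.36 to 10.39). The liver of replicate Crude_MCHM-140 at 500 mg/kg crude MCHM stood low for Dhcr7, at 10.77 (others 11.29 to 11.34). Counts without the first 2 of these livers and without the last are given above, and Tm7sf2 still passed without replicate 42.

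The responses of liver and kidney to 1000 mg/kg PPH differed, by the test of the difference itself, for Acat2 (1.28), Sqle (1.14), Mvd (1.10), Msmo1 (1.07), Hsd17b7 (1.05), Idi1 (1.02), Dhcr7 (0.93), Cyp51 (0.85), Mvk (0.65) and Ebp (0.49), all of them larger in liver.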

How the results depend on the processing

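Over 66 comparisons, 366 of 396 counts of called members under the alternatives stayed within 1.5 times the original count. Many of the original counts were 0, so this share says little about the larger counts. Values of single genes were followed where the original unadjusted p was under 0.05 (limma). Of these 2159 values, 2045 kept their direction and their side of the threshold, 58 lost the call, 47 gained one and 9 turned. With array weights the count of called members went from 0 to 1 at 500 mg/kg PPH in liver, at 500 mg/kg crude MCHM in kidney, in MCHM minus crude MCHM at 500 mg/kg in kidney, in PPH minus crude MCHM vehicle kidneys and in the tissue difference for crude MCHM. It went from 1 to 2 at 500 mg/kg MCHM and at 500 mg/kg crude MCHM in liver, from 3 to 8 in the crude MCHM trend and from 2 to 4 in crude MCHM minus MCHM vehicle kidneys. With the beta-actin covariate it went from 11 to 1 in the PPH trend and from 2 to 1 at 300 mg/kg crude MCHM in liver, from 1 to 0 (crude MCHM minus MCHM) and 2 to 0 (PPH minus MCHM) between vehicle livers, and from 2 to 0 and 9 to 2 between vehicle kidneys. With all chemicals in 1 fit it went from 0 to 1 at 500 mg/kg PPH in liver, at 1000 mg/kg PPH in kidney and in the MCHM and PPH trends in kidney, from 1 to 2 at 500 mg/kg MCHM, from 2 to 6 in the mean over PPH doses and from 3 to 5 in the crude MCHM trend. With the mean of all probe sets it went from 1 to 2 at 500 mg/kg MCHM, and from 2 to 1 in the mean over PPH doses and between PPH and MCHM vehicle livers. Quantile normalization again gave 0 in place of 2 for the mean over PPH doses, 6 in place of 10 for the tissue difference at 1000 mg/kg PPH and 1 in place of 0 between PPH and crude MCHM vehicle livers. Without a filter, which adds genes to the adjustment, it went from 2 to 1 for the mean over PPH doses and at 300 mg/kg crude MCHM. The causes of the other changes were not tested.

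With 1 array left out in turn, counts in liver ran from 3 to 14 at 1000 mg/kg PPH, 0 to 3 in its mean over doses and 2 to 13 in its trend; from 1 to 2, 0 to 1 and 2 to 5 for 500 mg/kg, 300 mg/kg and the trend of MCHM; and from 0 to 4, 0 to 3 and 2 to 7 for those of crude MCHM. In kidney they ran from 0 to 2 at 1000 mg/kg PPH, 0 to 1 in its trend and 0 to 1 at 500 mg/kg crude MCHM. The tissue difference for PPH ran from 2 to 11. Vehicle comparisons in liver ran from 1 to 2 (crude MCHM minus MCHM and PPH minus MCHM) and 0 to 1 (PPH minus crude MCHM), and in kidney from 0 to 4 (crude MCHM minus MCHM). The median change of the members at 1000 mg/kg PPH in kidney was −0.04 without vehicle replicate PPH-206, against −0.10.

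The values that turned were mostly differences between vehicle groups. With the beta-actin covariate Srebf2 was at −0.16 (crude MCHM minus MCHM) and −0.35 (PPH minus MCHM) in kidney, Fdft1 at −0.051 and −0.057 and Nsdhl at −0.15 and −0.23 in liver, and Tm7sf2 at 0.0015 (PPH minus MCHM, liver). Sc5d was at −0.019 in PPH minus crude MCHM vehicle kidneys with the mean of its probe sets, and Hsd17b7 at −0.35 at 0.1 mg/kg MCHM in kidney with the row-shifted array.

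Livers and kidneys share replicate numbers. Of 65 such pairs, 43 had deviations correlated above 0.1 (median r 0.122). Among the kidneys of the same chemical and dose, 62 of the 65 livers correlated best with their own number. The numbers thus hint at shared animals without showing it. With the replicate number as a block, the tissue differences kept their counts: 0 (MCHM), 0 (crude MCHM) and 10 (PPH) for the responses and 28, 27 and 28 for the vehicle groups.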

Other observations

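For Fdft1, Idi1, Hsd17b7, Cyp51, Lss, Mvk and Abca1, which had several probe sets, most sets read alike at 1000 mg/kg PPH in liver. Nsdhl, Sc5d, Stard4, Soat1, Srebf1, Srebf2, Scap and Insig2 also had several, whose values are not given here. The 2 sets of Fdft1 gave 0.68 and 0.70, those of Idi1 0.90 and 0.96, those of Hsd17b7 0.85 and 0.76, those of Cyp51 0.61 and 0.84, and those of Lss 0.75 and 0.52. Of 3 sets for Mvk, 2 gave 0.62 and the third −0.18, and the third was above the filter level in 47 of 81 livers with a mean of 4.74. The 4 sets of Abca1 gave −0.52, −0.16, −0.13 and −0.37.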
